A study of Mus musculus with 6 samples.

Results

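Notch signalling was described here through 10 genes: the receptors Notch1 and Notch2, the ligands Dll1, Dll3, Jag1 and Jag2, and the target genes Hes1, Hes5, Hey1 and Hey2. They were taken by symbol from the 18211 genes of the deposited expression table, and were chosen with earlier results of these data known. All 10 were present and all 10 passed the filter on low values. RNA-seq was carried out on 6 libraries of oligodendrocyte precursor cells (OPCs), 3 from wildtype mice and 3 from DISC1-Δ3 mice, isolated from C57BL/6 brains at P7 by immunopanning on Pdgfrα. DISC1-Δ3 mice carried NG2-CreERTM and 1 floxed allele of Disc1 exon 3 (NG2-CreERTM:DISC1 exon3 fl/+), whereas the wildtype mice carried no CreERT, and both groups received tamoxifen on 4 consecutive days from P4 to P7. The NG2 promoter that drives the recombinase is active in OPCs and also in mural cells of vessels. Because the controls lacked the driver, it and the loss of exon 3 cannot be told apart. The paper does not say whether the controls carried the floxed allele. The labels do not say whether a library came from 1 animal or from a pool, so p-values measure only the spread between these samples, which may be technical.

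The libraries held 13716619 to 16417219 reads assigned to genes. Disc1, the targeted gene, was counted over its whole length, and exon 3 was not resolved. Its RPKM (reads scaled to transcript length and library total) was 3.51, 3.34 and 3.81 in wildtype replicates 1 to 3 and 2.86, 2.44 and 2.85 in DISC1-Δ3 replicates 1 to 3. The groups did not overlap, and Disc1 was called lower in DISC1-Δ3, with a log2 fold change of -0.45 (SE 0.088, edgeR adjusted p = 5.28e-04). Replicate 3 of DISC1-Δ3 stood apart from its group, with a chi-square of its counts against the other two of 5.42 and 5.01 divided by the degrees of freedom, where the remaining within-group pairs gave 1.81 to 2.99. The preparations were checked against marker lists of 10 genes each, and no marker was at 0 in any library. Microglial markers summed to far more RPKM (14947 to 15236 in wildtype, 10410 to 10850 in DISC1-Δ3) than OPC markers (554 to 575 and 716 to 745). The libraries labelled OPC thus carried microglial marker transcripts at levels far above their OPC markers. Oligodendrocyte markers (2535 to 2568 in wildtype, 2325 to 2360 in DISC1-Δ3) and astrocyte markers (1560 to 1590 and 1475 to 1496) also summed to more than OPC markers. Between the groups, 20.4% of 13792 tested genes were called higher and 19.5% lower. Of the markers, 7 of 10 OPC markers were called higher and 1 lower, and all 10 microglial markers were called lower. Of the others, 9 of 10 neuronal, 9 of 10 mural and 5 of 10 endothelial markers were called higher with none lower. The endothelial count was 3 when any 1 of wildtype replicates 2 and 3 and DISC1-Δ3 replicates 1 and 2 was left out. For oligodendrocyte markers 0 of 10 were higher and 7 lower, and for astrocyte markers 2 were higher and 6 lower. The mural list shares Cspg4 with the OPC list and Notch3 with the Notch pathway list. In bulk RNA, fewer cells of a type and less RNA per cell cannot be told apart, and the part of these marker differences in the Notch results below was not tested.

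**Figure D1:**
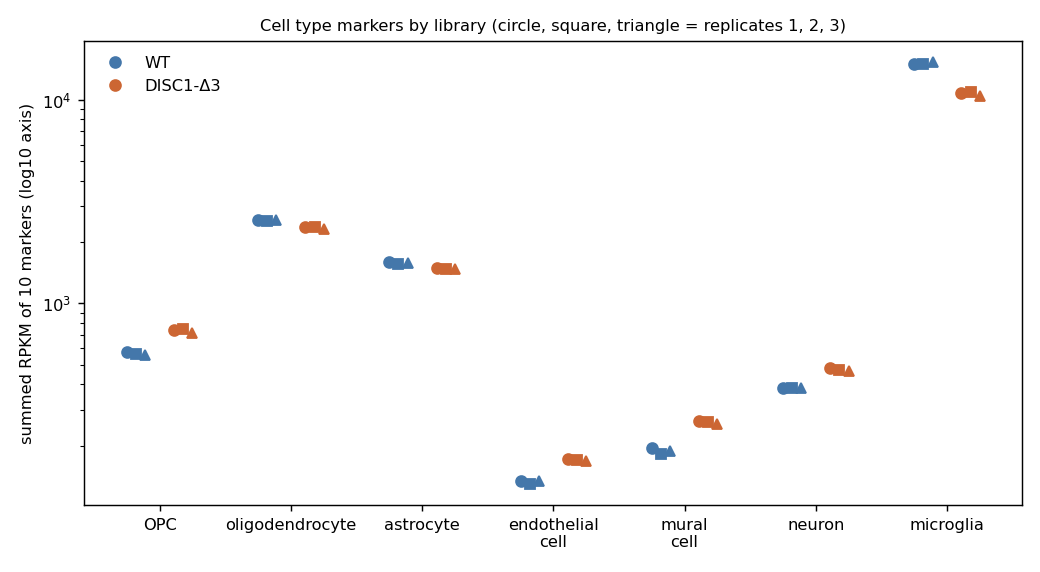
Summed RPKM of 10 marker genes for each of 7 cell types (log10 axis) in the 3 wildtype (blue) and 3 DISC1-Δ3 (orange) libraries, with circle, square and triangle for replicates 1, 2 and 3. Microglial sums are the highest in every library and fall from 14947 to 15236 in wildtype to 10410 to 10850 in DISC1-Δ3, whereas OPC, endothelial, mural and neuronal sums are higher in DISC1-Δ3.

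Notch receptors are cut when a Delta-like or Jagged ligand on a neighbouring cell binds them, and the released intracellular domain joins RBPJ and Mastermind proteins on DNA to switch on Hes and Hey genes. These targets are bHLH repressors that hold down proneural bHLH factors, some of which in turn activate Delta-like ligands. In the oligodendrocyte lineage, Notch activity through Hes targets is known to keep precursors from differentiating.

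Promoter sequence is shown for 1 target gene and 3 ligand genes that hold a match to DNA motifs of these factors, because targets and ligands are the ends of this loop. Sequences were taken from RefSeq on GRCm38.p6 (mm10), where 8 of the 10 members were matched (not Hes1 and Hey1), and the 250 bases before each listed start were searched on both strands. The RBPJ motif GTGGGAA was found in 6.18% of 27025 genes with a promoter. Among the 8 members Hes5 held 2 matches, 1 on each strand, and Hey2 held 1. The Hes5 stretch covers chr4:154960673-154960922 on the plus strand and ends at the base before the start listed in the promoter table, with both matches in capitals, the first of them read from the opposite strand. The RefSeq gene span of Hes5 opens at an earlier base than that start, so the stretch lies inside the span given for the gene below.

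Hes5: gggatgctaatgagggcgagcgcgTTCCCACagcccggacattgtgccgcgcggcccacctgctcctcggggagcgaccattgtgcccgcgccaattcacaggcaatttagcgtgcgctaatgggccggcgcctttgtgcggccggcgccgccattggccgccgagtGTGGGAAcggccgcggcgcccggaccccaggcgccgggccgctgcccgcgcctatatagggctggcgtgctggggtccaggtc

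The E-box CAGCTG, a short motif bound by bHLH factors, was found in 14.7% of the 27025 genes with a promoter, and in 3 of the 4 ligand genes. The matches lie 132 to 127 bases before the start in Dll1, 82 to 77 bases in Jag1 and 7 to 2 bases in Dll3. The stretches of 100 bases below are read on the minus strand, which carries all 3 genes, and capitals mark the E-box. They lie at chr17:15377012-15377111 for Dll1, chr7:28301786-28301885 for Dll3 and chr2:137116550-137116649 for Jag1.

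Dll1: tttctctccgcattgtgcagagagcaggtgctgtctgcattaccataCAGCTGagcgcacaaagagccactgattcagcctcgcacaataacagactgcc

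Dll3: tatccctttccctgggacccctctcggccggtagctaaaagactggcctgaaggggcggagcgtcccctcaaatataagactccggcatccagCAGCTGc

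Jag1: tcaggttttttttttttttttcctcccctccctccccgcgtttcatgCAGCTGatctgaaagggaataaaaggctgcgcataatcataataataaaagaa

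The TCF/LEF letters CTTTGAT, present in 3.72% of genes with a promoter, were found in none of the 8 members. A match describes the letters only, and binding was not measured.

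Across the 10 members, 4 were called higher and 2 lower in the DISC1-Δ3 libraries (edgeR's quasi-likelihood test, Benjamini-Hochberg adjusted p under 0.05). All 4 ligands were higher, the receptor Notch2 and the target Hes1 were lower, and Notch1, Hes5, Hey1 and Hey2 did not pass the threshold. The background in this comparison was high: 39.9% of 13792 tested genes were called, 20.4% higher and 19.5% lower. Without DISC1-Δ3 replicate 3, the library that stood apart, 6 were called higher and 2 lower, where 45.2% of all tested genes were called, 21.2% higher and 24.0% lower. The median log2 fold change of the members was 0.15, beside 0.007 over all tested genes. RPKM of the 2 groups did not overlap for 9 of the 10 members, against 52.0% of tested genes. On CPM scaled by TMM (a scaling to the bulk of genes) 8 of 10 did not overlap, against 49.6%. Summed over the 4 ligands, RPKM was 16.2 ± 0.358 in wildtype and 23.3 ± 0.349 in DISC1-Δ3 libraries (mean ± SD, n = 3 each). The sum over the 2 receptors was 29.7 ± 1.52 and 30.4 ± 0.561, and that over the 4 targets 132 ± 1.24 and 129 ± 3.04. The ligand sums therefore lay apart, whereas the receptor and target sums overlapped within their spread.

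**Figure D2:**
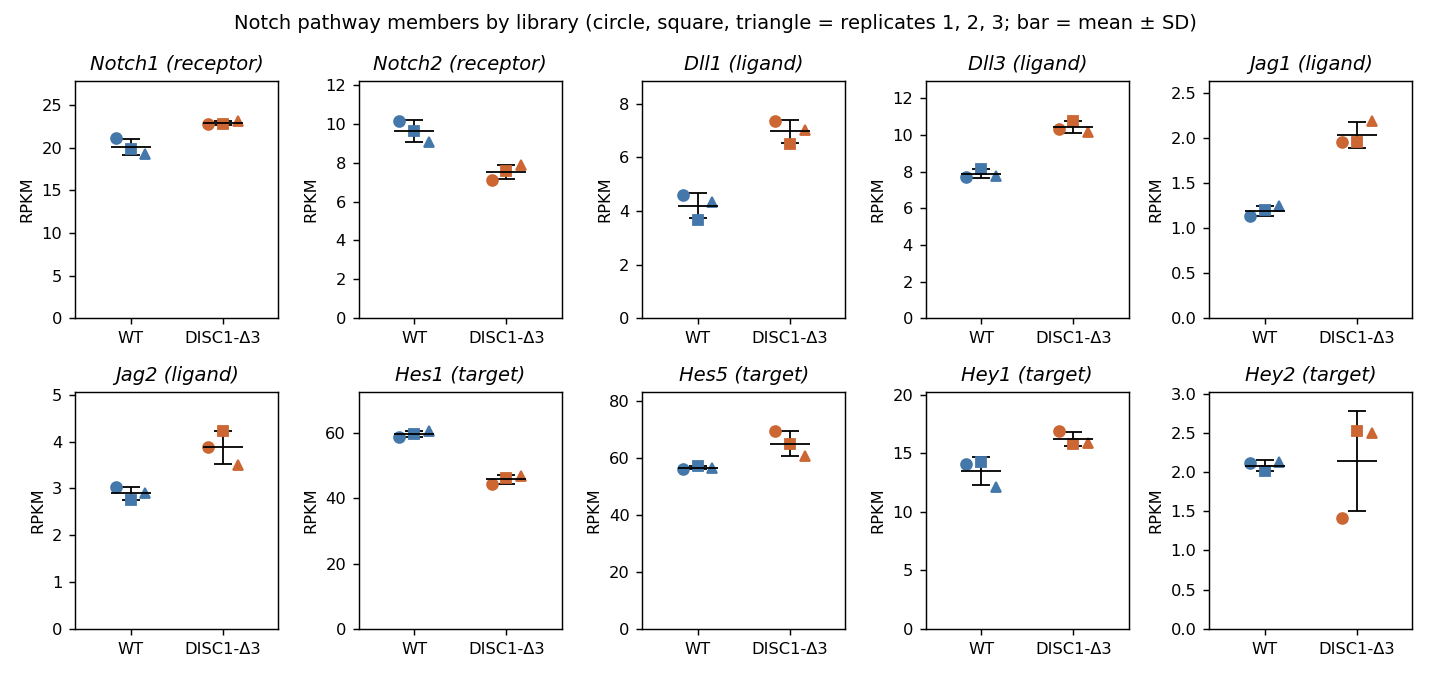
RPKM of the 10 Notch members (one panel each, axis from 0) in the 3 wildtype (blue) and 3 DISC1-Δ3 (orange) libraries, where symbols mark replicates 1 to 3 and bars give mean ± SD. The 4 ligands lie higher in all DISC1-Δ3 libraries, Notch2 and Hes1 lie lower, and Hey2 overlaps between the groups through a low DISC1-Δ3 replicate 1.

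The ligand Dll1 (Delta-like 1, gene ID 13388, chr17:15367354-15376932) had RPKM of 4.61, 3.67 and 4.32 in wildtype replicates 1 to 3 and of 7.37, 6.49 and 7.03 in DISC1-Δ3 replicates 1 to 3. Every DISC1-Δ3 library lay above every wildtype library. The log2 fold change was 0.66 (SE 0.098, edgeR adjusted p = 3.47e-05), which is 1.58-fold. Jag1 (Jagged 1, gene ID 16449, chr2:137081451-137116520), a ligand known to activate Notch1 on OPCs, had the lowest level of the 4. It was measured at 1.13, 1.20 and 1.24 RPKM in wildtype and at 1.95, 1.95 and 2.19 RPKM in DISC1-Δ3, from 84 to 110 and from 150 to 193 reads. The groups were separate, and the log2 fold change of 0.68 (SE 0.12, edgeR adjusted p = 2.63e-04) was close to that of Dll1, and which of the pair was larger changed with the setting. For Dll1 and Jag1 the call held under each of 16 alternative settings, with log2 fold changes of 0.57 to 0.74 and of 0.47 to 0.77.

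Dll3 and Jag2 changed by smaller amounts. Dll3 (gene ID 13389, chr7:28293555-28301785) differs from other Delta-like proteins in that it acts within the cell and hinders Notch signalling rather than activating it on a neighbour. Its RPKM was 7.72, 8.16 and 7.75 in wildtype against 10.32, 10.79 and 10.16 in DISC1-Δ3, again with no overlap. The log2 fold change was 0.32 (SE 0.088, edgeR adjusted p = 0.00717) and passed the threshold under all 16 alternatives. Jag2 (Jagged 2, gene ID 16450, chr12:112907803-112929812) was at 3.03, 2.75 and 2.91 RPKM in wildtype and at 3.89, 4.22 and 3.51 RPKM in DISC1-Δ3. All DISC1-Δ3 values were the higher ones, at a log2 fold change of 0.34 (SE 0.1, edgeR adjusted p = 0.0145). This call depended on single libraries: the edgeR adjusted p was 0.0661 when wildtype replicate 2 was left out, 0.0521 when wildtype replicate 3 was left out and 0.109 when DISC1-Δ3 replicate 2 was left out, within 0.00196 to 0.109 over all alternatives.

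Of the receptors, Notch2 alone was called. Notch2 (gene ID 18129, chr3:98013538-98150367) had RPKM of 10.17, 9.64 and 9.05 in wildtype and of 7.13, 7.59 and 7.86 in DISC1-Δ3. All 3 DISC1-Δ3 libraries lay below the lowest wildtype library. Its log2 fold change was -0.43 (SE 0.056, edgeR adjusted p = 7.47e-06), and the call held under all 16 alternatives. Notch1 (gene ID 18128, chr2:26457902-26503822), the more abundant of the 2 receptors, was at 21.15, 19.80 and 19.26 RPKM in wildtype and at 22.78, 22.81 and 23.17 RPKM in DISC1-Δ3. These groups also did not overlap, but the difference was small, with a log2 fold change of 0.11 (SE 0.045), and missed the threshold (edgeR adjusted p = 0.0614). Without wildtype replicate 1 it passed, at a log2 fold change of 0.15 (edgeR adjusted p = 0.0228, within 0.00207 to 0.246 over all alternatives). Without wildtype replicate 3 it was 0.08 and did not pass (edgeR adjusted p = 0.246).

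Among the targets, Hes1 and Hes5 were the most abundant members. Hes1 (gene ID 15205, chr16:30065357-30067796), a repressor that answers to Notch and to other signals, was at 58.77, 59.71 and 60.53 RPKM in wildtype. In DISC1-Δ3 it was at 44.30, 46.31 and 46.73 RPKM, below every wildtype library. The log2 fold change was -0.46 (SE 0.055, edgeR adjusted p = 2.21e-06), and it ranged from -0.50 to -0.38 over 16 alternatives that all passed the threshold. Hes5 (gene ID 15208, chr4:154960626-154962372), a target closely tied to Notch in neural progenitors, was at 56.29, 57.43 and 56.53 RPKM in wildtype and at 69.50, 65.04 and 60.94 RPKM in DISC1-Δ3. The DISC1-Δ3 values were all higher but more spread out, and on TMM-scaled CPM the groups overlapped. Its log2 fold change was 0.12 (SE 0.059, edgeR adjusted p = 0.106). Without DISC1-Δ3 replicate 3 it was 0.17 and passed (edgeR adjusted p = 0.014, within 0.00797 to 0.558 over all alternatives). Without DISC1-Δ3 replicate 1 it was 0.05 and did not pass (edgeR adjusted p = 0.558).

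Hey1 and Hey2 are bHLH repressors related to the Hes proteins. Hey1 (gene ID 15213, chr3:8663359-8667038) had RPKM of 14.05, 14.26 and 12.12 in wildtype and of 16.87, 15.80 and 15.87 in DISC1-Δ3. The groups did not overlap, yet the log2 fold change of 0.18 (SE 0.08) did not pass (edgeR adjusted p = 0.0767). It passed at 0.20 without DISC1-Δ3 replicate 3 (edgeR adjusted p = 0.0429, within 0.0135 to 0.332 over all alternatives). Without wildtype replicate 3 it was 0.11 and did not pass (edgeR adjusted p = 0.332). Hey2 (gene ID 15214, chr10:30832359-30842783) was at 2.11, 2.01 and 2.13 RPKM in wildtype and at 1.41, 2.52 and 2.50 RPKM in DISC1-Δ3. DISC1-Δ3 replicate 1 was the lowest of the 6 libraries, with 48 reads against 97 and 96 in the other two, which were the highest. The log2 fold change was -0.03 (SE 0.19, edgeR adjusted p = 0.916), and without that library it was 0.17. No direction can be given for Hey2 at this depth.

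Calls near the threshold also depended on scaling. With library totals or RPKM sums in place of TMM, the median log2 fold change of all genes moved from 0.007 to 0.090 and 0.094, and the share of calls that were higher moved from 51.1% to 69.1% and 70%. Under these scalings Notch1, Hes5 and Hey1 were also called higher, so that 7 members were higher and 2 lower. Notch2 and Hes1 remained lower and the 4 ligands higher under every scaling.

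**Figure D3:**
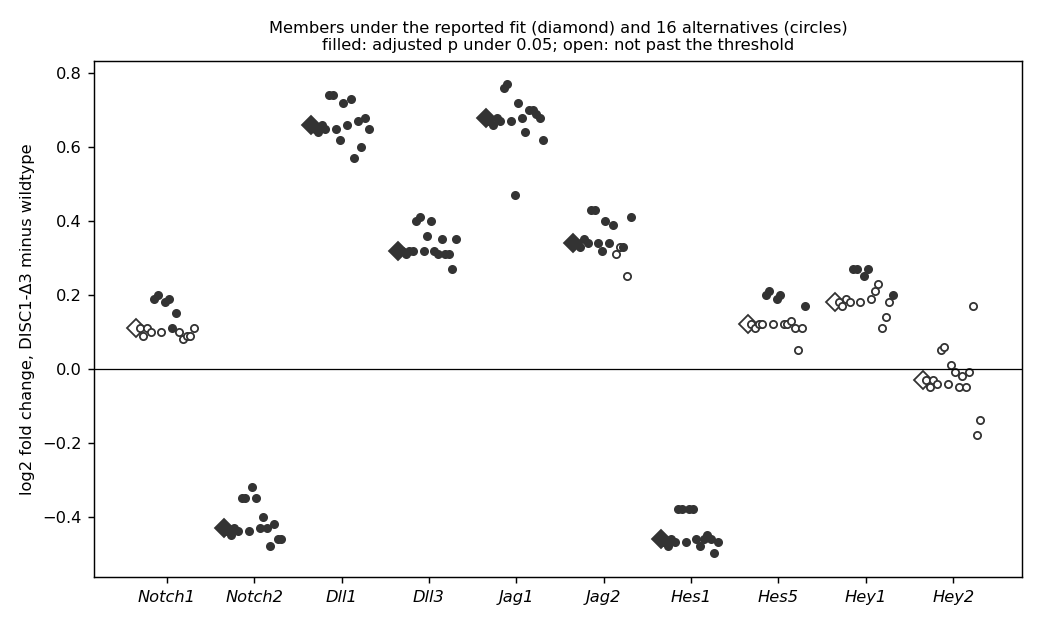
Log2 fold change (DISC1-Δ3 minus wildtype) of each member under the reported fit (diamond) and 16 alternatives (circles), filled where the adjusted p was under 0.05. Dll1, Dll3, Jag1, Notch2 and Hes1 keep filled symbols on 1 side of 0 throughout, Jag2 has 3 open circles, and Notch1, Hes5 and Hey1 are filled only under some settings.

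Ratios of 2 members within a library do not depend on scaling between libraries, and 5 were compared. The ratio of Hes5 to Hes1 was 0.96, 0.96 and 0.93 in wildtype against 1.57, 1.40 and 1.30 in DISC1-Δ3. Hes1 was thus slightly above Hes5 in every wildtype library, and Hes5 above Hes1 in every DISC1-Δ3 library, a log2 difference of 0.58. The ratio of Notch2 to Notch1 was 0.48, 0.49 and 0.47 in wildtype against 0.31, 0.33 and 0.34 in DISC1-Δ3, a log2 difference of -0.55. Between the ligands, the ratio of Dll3 to Dll1 was 1.67, 2.22 and 1.79 in wildtype against 1.40, 1.66 and 1.45 in DISC1-Δ3. That of Jag2 to Jag1 was 2.68, 2.29 and 2.35 in wildtype against 1.99, 2.16 and 1.60 in DISC1-Δ3. None of these 4 ratios overlapped between the groups, the narrowest gap being that of Dll3 to Dll1. Each of the 4 gave a two-sided exact permutation p of 0.1, the smallest that 3 against 3 libraries allow (0.125 adjusted over the 5 ratios). The ratio of Hey2 to Hey1 overlapped, with an exact permutation p of 0.7 and a log2 difference of -0.27 that became 0.03 without DISC1-Δ3 replicate 1.

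**Figure D4:**
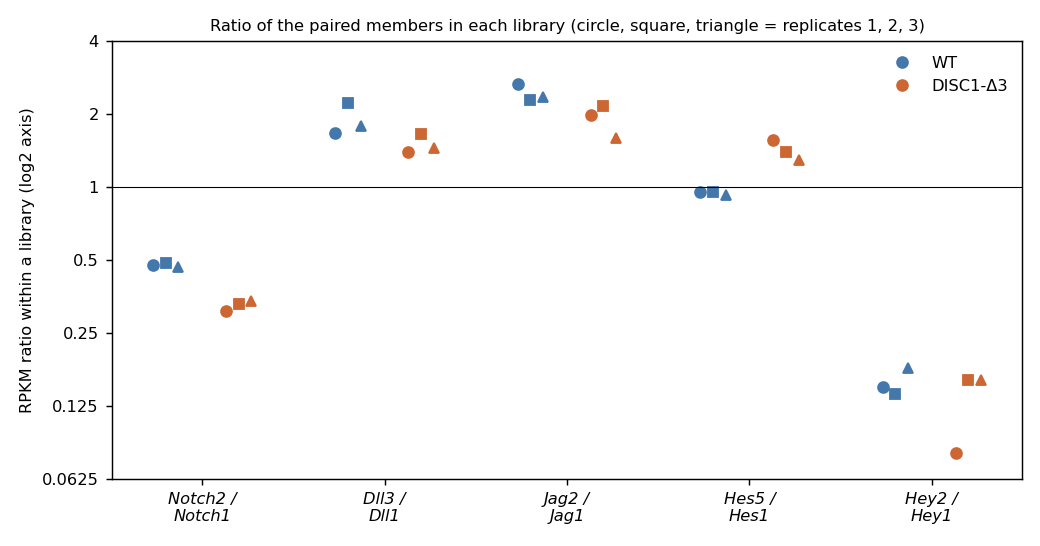
RPKM ratio of 2 members within each library (log2 axis), with circle, square and triangle for replicates 1, 2 and 3 of wildtype (blue) and DISC1-Δ3 (orange). Hes5 over Hes1 lies between 0.93 and 0.96 in wildtype libraries and between 1.30 and 1.57 in DISC1-Δ3 libraries, Notch2 over Notch1 is lower in all DISC1-Δ3 libraries, and Hey2 over Hey1 overlaps.

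Ordered by RPKM, a level per transcript length, the wildtype libraries had Hes1, Hes5, Notch1, Hey1, Notch2, Dll3, Dll1, Jag2, Hey2 and Jag1 from highest to lowest, and the ranges of no neighbours overlapped. The libraries carried markers of several cell types, so this is the order in the whole preparation. In the DISC1-Δ3 libraries the order was Hes5, Hes1, Notch1, Hey1, Dll3, Notch2, Dll1, Jag2, Hey2 and Jag1. There Dll1 (6.49 to 7.37 RPKM) could not be separated from Notch2 (7.13 to 7.86 RPKM), nor Jag1 (1.95 to 2.19 RPKM) from Hey2 (1.41 to 2.52 RPKM). Dll3, below Notch2 in every wildtype library, lay above it in every DISC1-Δ3 library.

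The rest of the pathway was followed through 65 other genes, of which 63 were tested. Of these, 14 were called higher and 15 lower, with a median log2 fold change of -0.03, a share of calls near the 39.9% of all tested genes. Hes2 and Hes3 had at most 2 reads in any library and were not tested. Among receptors and canonical ligands outside the 10, Dll4 (Delta-like 4, known for its role in vessels) was at 2.41, 2.35 and 2.16 RPKM in wildtype and at 4.61, 3.97 and 4.85 RPKM in DISC1-Δ3. The groups were well apart, and the log2 fold change was 0.87 (SE 0.12, edgeR adjusted p = 9.90e-06), so that each of the 5 Delta-like and Jagged ligands measured was higher. Beside it, endothelial markers summed to 129 to 134 RPKM in wildtype and 168 to 172 RPKM in DISC1-Δ3, and mural markers to 182 to 194 and 254 to 264 RPKM. Their part in the Dll4 result was not tested. Notch3, a receptor known from mural cells, was at 17.8 ± 0.537 RPKM in wildtype and 19 ± 0.922 RPKM in DISC1-Δ3 (mean ± SD, n = 3 each) and overlapped, with a log2 fold change of 0.02 (SE 0.051, edgeR adjusted p = 0.833) whose sign changed with the setting. Notch4 had a log2 fold change of -0.33 (SE 0.091, edgeR adjusted p = 0.00831) but missed the threshold in both limma fits, and it was chosen for mention after its values were seen.

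Of 5 other ligands, 3 were called higher and none lower, where 20.4% of all tested genes were called higher. Dner, a transmembrane protein with Delta-like EGF repeats, rose from 32.11, 30.36 and 30.15 RPKM in wildtype to 57.21, 54.00 and 53.48 RPKM in DISC1-Δ3. That is a log2 fold change of 0.75 (SE 0.049, edgeR adjusted p = 1.25e-09), with the widest gap in RPKM of the ligands. The contactins Cntn6 and Cntn1, cell-surface adhesion proteins described as Notch ligands, had log2 fold changes of 0.93 (SE 0.24, edgeR adjusted p = 0.00456) and 0.45 (SE 0.067, edgeR adjusted p = 3.04e-05). Cntn6 passed the filter on low values through the DISC1-Δ3 libraries, since 1 wildtype library lay below the minimum, and had 25 to 35 reads in wildtype and 40 to 75 reads in DISC1-Δ3, and Cntn1 was chosen after its values were seen.

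Genes for receptor maturation and cleavage were called lower in 7 of 14 cases and higher in none, with a median log2 fold change of -0.13, where 19.5% of all tested genes were called lower. With library totals, RPKM sums or either limma fit, 4 were lower. The 7 were the Fringe glycosyltransferases Lfng and Mfng, the sheddases Adam10 and Adam17 and the gamma-secretase subunits Psen2, Ncstn and Aph1a. Adam10, Ncstn and Aph1a were the ones that missed the threshold under these settings, and Adam10 passed in 7 of 16 alternatives. Lfng, which tunes the choice between Delta-like and Jagged ligands, went from 92.90, 90.80 and 94.31 RPKM to 74.43, 72.39 and 68.52 RPKM, a log2 fold change of -0.45 (SE 0.048, edgeR adjusted p = 6.58e-07). Adam17, a sheddase that can cut Notch receptors outside the membrane, had a log2 fold change of -0.36 (SE 0.055, edgeR adjusted p = 4.21e-05). Both were picked for mention with their values in view. Of 4 genes for ligand ubiquitination, Mib2 alone was called in the reported fit, higher with a log2 fold change of 0.31. Over all tested genes 20.4% were called higher, and Mib2 too was chosen after its values were seen. Another of the 4 was called lower with filterByExpr, with the replicate number as a block, or when replicate 3 of either group was left out.

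In the transcription complex 4 of 9 genes were lower and none higher: Rbpj, Maml2, Maml3 and Ep300. Over all tested genes 39.9% were called and 19.5% were lower. In both limma fits 1 of the 9 was lower, since Rbpj, Maml3 and Ep300 missed the threshold, and 1 was higher. Rbpj, the DNA-binding partner of the Notch intracellular domain, was at 18.90, 18.24 and 16.28 RPKM in wildtype and at 14.55, 15.66 and 17.75 RPKM in DISC1-Δ3. On this scale DISC1-Δ3 replicate 3 lay within the wildtype range, whereas the TMM-scaled values did not overlap. The log2 fold change was -0.29 (SE 0.065, edgeR adjusted p = 0.0018). In limma fits to log2 RPKM, with no further scaling, it was -0.15 and -0.16 and not past the threshold, with adjusted p of 0.152 and 0.154 within 1.64e-05 to 0.154 over all alternatives.

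The co-repressors were mixed, with 4 of 13 higher (Tle1, Hdac1, Hdac2 and Ctbp1) and 2 lower (Tle3 and Kdm5a). Over all tested genes 39.9% were called, 20.4% higher and 19.5% lower. Without DISC1-Δ3 replicate 1 or without replicate 2, 2 were higher, and without DISC1-Δ3 replicate 3, 4 were lower. Tle1, a Groucho protein that Hes and Hey repressors recruit and that also binds TCF factors of the Wnt pathway, had the largest change of the 63 genes. It was at 13.23, 12.63 and 12.64 RPKM in wildtype and at 29.95, 29.37 and 27.47 RPKM in DISC1-Δ3. The fold was 2.19 (log2 fold change 1.13, SE 0.06, edgeR adjusted p = 7.43e-11) and passed under all 16 alternatives. Its relative Tle3 was called lower by a smaller amount, with a log2 fold change of -0.23 (SE 0.054, edgeR adjusted p = 0.00257). Tle3 passed under all 16 alternatives as well, at up to 0.0481 (limma adjusted p), and was named with its values in view.

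Among 10 genes for receptor inhibition and turnover, 4 were higher (Numbl, Nedd4, Dtx1 and Dtx3) and 1 lower (Dtx3l), where 39.9% of all tested genes were called. Without DISC1-Δ3 replicate 2, 2 were higher, and 2 were lower without DISC1-Δ3 replicate 1 or replicate 3. Dtx3l, a Deltex-related ubiquitin ligase also known from interferon responses, was at 4.23, 3.95 and 3.89 RPKM in wildtype and at 2.46, 1.92 and 2.47 RPKM in DISC1-Δ3, a log2 fold change of -0.90 (SE 0.11, edgeR adjusted p = 2.15e-06). Numb, the inhibitor that is shared out unequally in dividing progenitors, overlapped between the groups at 10.07, 10.36 and 10.90 RPKM and 9.83, 10.49 and 11.42 RPKM. Its log2 fold change was -0.05 (SE 0.074, edgeR adjusted p = 0.603), and the sign changed with scaling. Numbl, its close relative, had a log2 fold change of 0.47 (SE 0.069, edgeR adjusted p = 3.04e-05) and was chosen after its values were seen. Of the 5 other target and Hes genes tested, Hes6 alone was called. Hes6, which opposes Hes1 rather than acting as its copy, had a log2 fold change of 0.32 (SE 0.064, edgeR adjusted p = 5.73e-04), again a gene singled out after its values were seen.

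Proneural bHLH factors, the genes that Hes repressors hold down, were on a separate list of 7, of which 6 were in the table and 3 were tested. Neurog2 was called higher and none lower, where 20.4% of all tested genes were called higher. Neurod4, below the filter and named after its values were seen, had 5, 8 and 11 reads in wildtype and 3, 3 and 2 reads in DISC1-Δ3. With no filter the number of proneural genes called stayed at 1. Neurog2, a neuronal lineage factor, was scarce, with 10, 18 and 24 reads in wildtype and 50, 66 and 56 reads in DISC1-Δ3. It passed the filter on low values through the DISC1-Δ3 libraries, and its log2 fold change was 1.64 (SE 0.25, edgeR adjusted p = 4.69e-05), 0.87 to 1.91 over the alternatives. Neuronal markers summed to 382 to 385 RPKM in wildtype and 464 to 481 RPKM in DISC1-Δ3, and their part in the Neurog2 result was not tested.

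**Figure D5:**
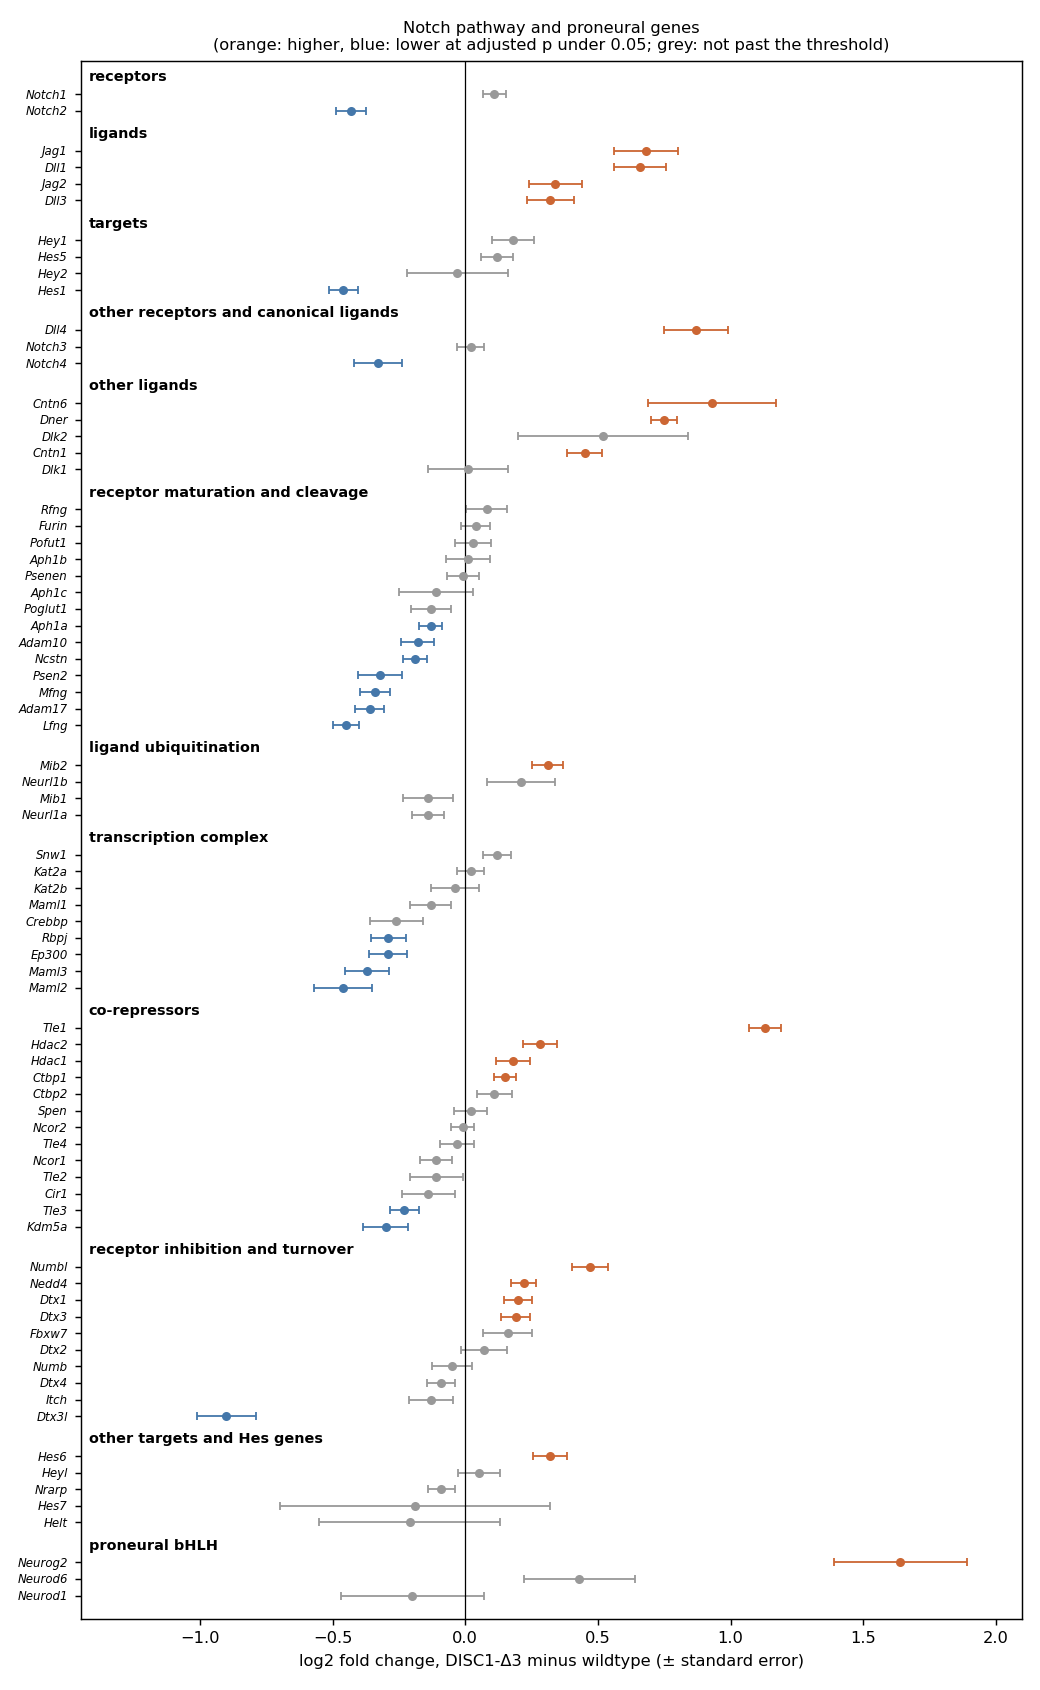
Log2 fold change (DISC1-Δ3 minus wildtype, ± standard error) from edgeR's fit for the 10 members, 63 other Notch pathway genes and 3 proneural bHLH genes, grouped by role. Orange marks genes called higher and blue genes called lower. The 4 member ligands, Dll4, Dner, Cntn1 and Cntn6 lie to the right, maturation and cleavage genes and the transcription complex hold blue points with no orange ones, and Tle1 (1.13) and Neurog2 (1.64) lie farthest to the right.

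The genes whose pattern was most like that of Hes5 and Notch1 were sought among 12663 genes, by the root mean square difference in TMM-scaled log2 CPM over the 6 libraries, each gene centred on its wildtype mean. For Hes5 they were AU022252 (0.018), Cadm4 (0.020) and Letm1 (0.021). Cadm4, a cell adhesion molecule of glia, was at 189.04, 184.39 and 186.10 RPKM in wildtype and at 230.00, 213.22 and 205.46 RPKM in DISC1-Δ3, and as for Hes5 DISC1-Δ3 replicate 1 was the highest library. For Notch1 they were Acadl (0.014), Rhbdd2 (0.017) and Epc1 (0.018). All 6 were selected for likeness of pattern across the libraries, not of level, and are described by that likeness only.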

How the data were processed

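RNA-seq libraries of P7 OPCs, 3 wildtype and 3 DISC1-Δ3, were sequenced on BGISEQ-500. The submitters' processing notes name Bowtie2 2.2.5 and mm10, and the counter is not given in the sources used here. The authors deposited 1 table of 18211 genes with an estimated count (expected count; 90.2% of values above 0 are whole within 0.001) and an RPKM, which the authors scaled to transcript length and library total, for each library. The table also has 4 columns of group averages, which were left aside. Of the gene IDs, 18085 were found in a RefSeq gene table of GRCm38.p6, the source of coordinates.

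Counts were rounded and tested with edgeR 4.0.16 (R 4.3.3; quasi-likelihood test, TMM, genotype as the only term) for the 13792 genes with RPKM of at least 0.5 in at least 3 libraries. P-values are two-sided and Benjamini-Hochberg adjusted over all 13792, with a threshold of 0.05, and the SE is the log2 fold change divided by the square root of F. Ratios used an exact permutation test on log2 RPKM ratios. Reads had no molecular identifiers, and totals of 13716619 to 16417219 limit precision for genes with few reads. Alternatives were no filter, filterByExpr, RPKM of at least 1, RLE scaling, library totals, RPKM sums, DESeq2 1.42.0, limma 3.58.1 on log2(RPKM + 1) and log2(RPKM + 0.1), the replicate number as a block and each library left out. Scripts were tested on simulated data.

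The members and lists were chosen with earlier results of these data known. All members were named, together with called genes of the pathway and proneural lists whose log2 fold change was 0.5 or more in size, Rbpj, Notch3, Dll4, Numb and the 3 nearest patterns of Hes5 and Notch1. Some genes that a count covers are also named. Neurog3 was not analysed here, and some genes of the pathway and proneural lists are not reported here and were left out of the counts.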

Additional observations from a re-analysis of the deposited data

How the results depend on the processing

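The counts, the member genes and the other genes named with a fold change or a call were recomputed under 16 alternatives, except that Disc1 was not and that Cntn6 was not tested with a filter at an RPKM of 1, and the ratios were recomputed from read counts plus 0.5 and with each library left out. Dll1, Dll3, Jag1, Notch2 and Hes1 kept their direction and stayed past the threshold under all of them, and the causes of the changes below were not tested. Members called higher numbered 7 rather than 4 with library totals, with RPKM sums and with limma at either pseudocount, and 3 to 6 with 1 library left out. Members called lower numbered 2 throughout. Other pathway genes called lower numbered 7 rather than 15 in both limma fits, and proneural genes called 2 rather than 1 in limma on log2(RPKM + 1). With library totals, RPKM sums, limma on log2(RPKM + 1) and limma on log2(RPKM + 0.1), in that order, the log2 fold changes that passed the threshold were 0.19, 0.20, 0.18 and 0.19 for Notch1, 0.20, 0.21, 0.19 and 0.20 for Hes5, and 0.27, 0.27, 0.25 and 0.27 for Hey1. Hey2 turned to 0.05, 0.06 and 0.01 under the first 3 of these, and Numb to 0.03, 0.03, 0.02 and 0.02. Notch3 was at 0.00 with filterByExpr. Notch4 (-0.18 and -0.24), Rbpj (-0.15 and -0.16) and Maml3 (-0.24 and -0.28) missed the threshold in the 2 limma fits. With 1 library left out, log2 fold changes ranged from 0.08 to 0.15 for Notch1, 0.25 to 0.41 for Jag2, 0.05 to 0.17 for Hes5, 0.11 to 0.23 for Hey1, -0.18 to 0.17 for Hey2 and -0.04 to 0.06 for Notch3, and the log2 difference of Hey2 over Hey1 from -0.43 to 0.03. Same-numbered libraries of the groups had correlations of 0.0414, 0.0339 and -0.0139 in their deviations. Replicates 1 and 2 matched best with their own number and replicate 3 did not. With 3 libraries in each group this cannot decide whether the numbers pair the samples. With the replicate block 5429 genes were called rather than 5498, and Notch1 passed at 0.11 (edgeR adjusted p = 0.0492, within 0.00207 to 0.246 over the alternatives), while no other member changed its call. Among genes with few reads, Hey2, Jag1, Cntn6 and Neurog2 had at most 193 in any library.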
